A study of Mus musculus with 4 samples.

Results

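The response of KO macrophages to lipid A was read from the ratio of 1 array, KO lipid A, over 1 array, KO vehicle, which are 2 of the 4 arrays of the study. Of the 18193 genes with a probe set of 1 symbol, each represented by its brightest probe set, 12293 were considered, these being the genes whose higher signal on the KO arrays reached the median signal of its array. Peritoneal macrophages from C57BL6/J mice were elicited with thioglycollate and taken as the cells that attached in culture. KO mice were LysM Cre/+:Setdb1 fl/fl and WT mice were +/+:Setdb1 fl/fl, so that both groups carried the floxed Setdb1 alleles and KO alone carried the Cre. The Cre is driven by the lysozyme M gene, which is active in cells of the myeloid lineage, neutrophils included, and not in macrophages alone. Cells received vehicle or lipid A for 4 h, at 10 ng/ml by the series design text and at 10 µg/ml by the sample labels. The age of the mice and the number of mice behind an array are not given in the sources used here. With 1 array per condition no test between conditions was possible, and every fold below is a ratio between single arrays without a replicate check.

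Lipid A is the membrane anchor of bacterial lipopolysaccharide and is bound by the receptor TLR4 with its partners MD-2 and CD14. From TLR4 one branch through the adaptor MyD88 activates NF-κB and AP-1, which switch on cytokine and chemokine genes, and another through TRIF and IRF3 induces type I interferon, which acts back on the cells through STAT transcription factors to induce antiviral genes. Feedback inhibitors, such as IκBα and A20 for NF-κB and the SOCS proteins for cytokine receptors, are induced by the same signals. Setdb1, the enzyme deleted in KO, places methyl groups on lysine 9 of histone H3, a mark of silenced chromatin.

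Upstream sequences of 6 genes that stood among the 25 largest ratios in KO are shown first, chosen because they hold letters that NF-κB and interferon-activated factors are known to bind. Of the 25 genes 20 had a sequence at hand, and in windows of 300 bases 5 of these held an NF-κB match and 3 (15.0%) a GAAANNGAA match. Most of the 20 held neither, namely Acod1, Il1b, Ptgs2, Tnf, Ifit2, Il1a, Icam1, Il12b, Marcksl1, Socs3, Cmpk2, Plagl1 and Serpinb2. The 6 stretches below are therefore not typical of the 25. The stretches are RefSeq sequences of the mouse build GRCm38.p6, written 5′ to 3′ on the strand of the gene and ending at the base before its start, with matches to the NF-κB consensus or to the interferon-stimulated response element core GAAANNGAA on either strand in capitals. The 3 neighbouring CXC chemokine genes and Il6 hold 1 NF-κB match each in the stretch shown, Cxcl10 holds 2 NF-κB matches and 1 GAAANNGAA match, and Ifit1 holds GAAANNGAA matches in reverse orientation and no NF-κB match.
Il6, chr5:30012964-30013113, plus strand: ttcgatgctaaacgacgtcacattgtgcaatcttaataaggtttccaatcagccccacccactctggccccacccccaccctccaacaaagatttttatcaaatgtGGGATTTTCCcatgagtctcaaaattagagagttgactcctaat
Cxcl1, chr5:90891095-90891244, plus strand: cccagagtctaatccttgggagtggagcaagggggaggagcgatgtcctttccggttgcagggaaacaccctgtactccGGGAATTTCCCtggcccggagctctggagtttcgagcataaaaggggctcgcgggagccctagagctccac
Cxcl2, chr5:90903749-90903898, plus strand: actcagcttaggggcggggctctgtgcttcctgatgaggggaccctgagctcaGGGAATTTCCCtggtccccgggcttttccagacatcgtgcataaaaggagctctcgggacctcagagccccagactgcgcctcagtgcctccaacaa
Cxcl3, chr5:90785951-90786100, plus strand: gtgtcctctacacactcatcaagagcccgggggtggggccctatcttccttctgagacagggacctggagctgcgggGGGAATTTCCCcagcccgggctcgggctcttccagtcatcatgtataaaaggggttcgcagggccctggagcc
Cxcl10, chr5:92348890-92349114, minus strand: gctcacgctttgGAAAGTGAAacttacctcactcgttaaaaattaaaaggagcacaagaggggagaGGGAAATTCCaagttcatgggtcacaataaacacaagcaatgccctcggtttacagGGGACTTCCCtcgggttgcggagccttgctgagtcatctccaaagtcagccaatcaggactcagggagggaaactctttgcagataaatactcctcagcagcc
Ifit1, chr19:34640739-34640888, plus strand: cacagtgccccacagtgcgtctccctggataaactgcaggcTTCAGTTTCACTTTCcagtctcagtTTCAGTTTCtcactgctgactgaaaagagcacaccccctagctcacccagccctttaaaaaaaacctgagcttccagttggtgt

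Matches of this kind were more frequent in the windows of genes that were higher with lipid A in KO than in all windows. RefSeq windows of 300 bases, from 250 before to 50 after the gene start, were at hand for 27025 genes, and for 531 of the 695 genes over 2-fold higher in KO, 80 of the 100 with the largest ratio and 997 of the 1203 over 2-fold lower. A match to the NF-κB consensus stood in 5.14% of all windows, in 11.3% of those of the genes over 2-fold higher, in 20.0% of the 80 and in 5.42% of those of the lowered genes. For GAAANNGAA the shares were 9.76%, 16.4%, 22.5% and 6.72%, and for the AP-1 motif TGANTCA 8.97%, 12.2%, 20.0% and 6.72%, in the same order. The TATA box TATAAA was found in 15.7%, 14.3%, 18.8% and 8.32% and the cAMP response element TGACGTCA in 2.03%, 1.88%, 1.25% and 1.91%. Of the 12293 genes considered, 9953 had a window, and 6.15%, 8.44% and 6.61% of these held the NF-κB, GAAANNGAA and TGANTCA letters. Among the interferon-stimulated antiviral genes over 2-fold higher, 9 of the 18 with a window held GAAANNGAA, against 2 that held the NF-κB consensus. Both strands were searched, a motif was counted where it overlapped another, and a match is a description of letters and not a binding site.

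The 4 arrays were scaled alike, with a mean of 500.004 on each after trimming 2% at each end, and their median signals lay between 65.1 and 84.2. The median of KO lipid A was 0.15 below that of KO vehicle on the log2 scale, whereas the median of WT lipid A was 0.20 above that of WT vehicle. As a measure of RNA integrity, the actin ratio of 3′ to 5′ probe sets was 2.19 on the KO vehicle array and 1.79 on the KO lipid A array, and the Gapdh ratio was 1.35 on KO vehicle against 0.945 to 1.07 on the other 3 arrays. KO vehicle is the denominator of every KO fold, and the part of these ratios in the KO response was not tested. Setdb1 itself gave WT signals of 589 (vehicle) and 521 (lipid A) and KO signals of 346 (vehicle) and 386 (lipid A), and was 1.12-fold higher with lipid A in KO. Whether its probe set falls within the deleted exons is unknown, so the signal does not check the labels. Rplp0, a ribosomal protein gene, and Actb differed between the KO arrays by 1.08-fold and 1.06-fold. Signals below the median of their array were treated as background and raised to it, so a fold is given as a lower bound where its lower signal lay below the median and as measured where it did not. Between probe sets of 1 gene the log2 KO response varied with an SD of 0.46 over 4267 genes, or 1.38-fold, which is a technical spread and leaves out differences between mice.

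Lipid A gave KO macrophages a response in which few genes were far higher and many genes were moderately lower. Of the 12293 genes, 695 lay over 2-fold higher with lipid A (5.65%) and 1203 over 2-fold lower (9.79%). The upward side reached much further, since 279 genes were over 4-fold higher and 132 over 4-fold lower, 131 were over 8-fold higher and 14 lower, and 68 were over 16-fold higher and 2 lower. Above 32-fold there were 40 genes, above 128-fold 15 and above 256-fold 7, with none lowered by as much. The balance depends on the scaling of the arrays: with the array medians set equal, 895 genes were higher and 863 lower, and the median log2 difference over all genes considered was -0.035 in place of -0.19. The log2 medians of the lists given below all rise by the same amount under that scaling, and those of the dual-specificity phosphatase, glycolysis, cholesterol synthesis, alternative activation and T and NK cell lists then turn from just below 0 to between 0.0076 and 0.092. For 128 of the 695 genes the signal in KO vehicle lay below the median, and for 224 of the 1203 lowered genes the signal in KO lipid A did. Where a gene had a further probe set that could be considered, that probe set was also over 2-fold higher for 234 of 352 genes (66.5%), and over 2-fold lower for 253 of 572 genes (44.2%), with 5 going the opposite way on each side.

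**Figure D1:**
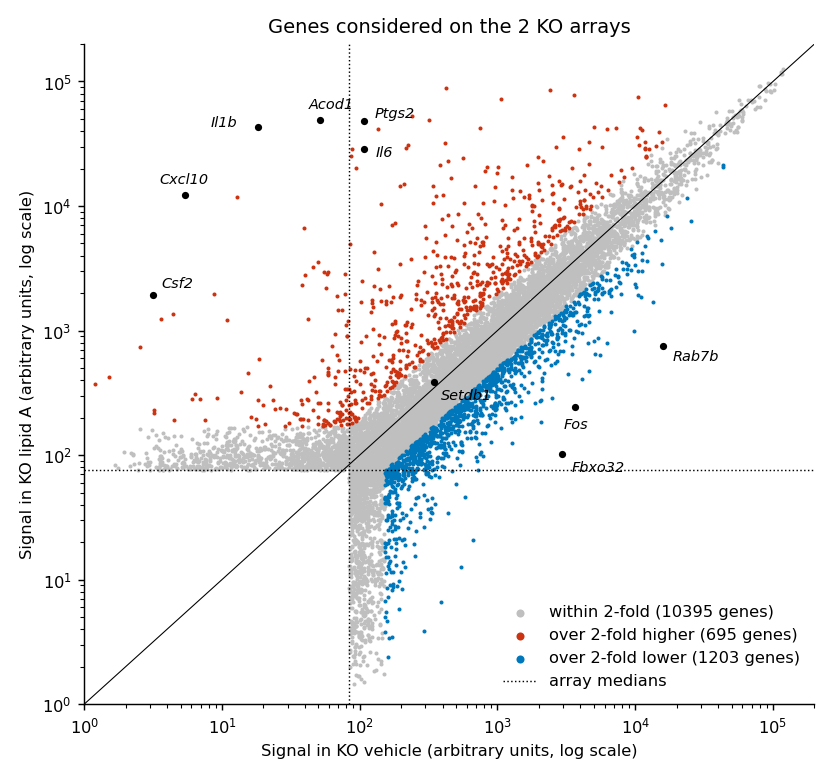
Signal of each of the 12293 genes considered in KO vehicle (x axis) and KO lipid A (y axis), both in arbitrary units on log scales, 1 point per gene. Signals are plotted as deposited, dotted lines are the array medians and the diagonal is equality. With signals below a median raised to it, the 695 higher genes reach ratios of up to at least 585-fold (Acod1). On the same measure the 1203 lower genes reach 29.0-fold lower (Fbxo32). Genes with a signal below a median can lie further from the diagonal in the plot than these ratios.

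The 25 genes with the largest ratio in KO were led by Acod1, Il1b, Ptgs2 and Ccl2. By the gene lists used here they held 5 proinflammatory cytokines, 4 CXC and 3 CC chemokines and 4 interferon-stimulated antiviral genes. The smallest of the 25 ratios was 52.1-fold, for Rtp4. The signals of the genes at the top of this order show how far they moved and from where.

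**Figure D2:**
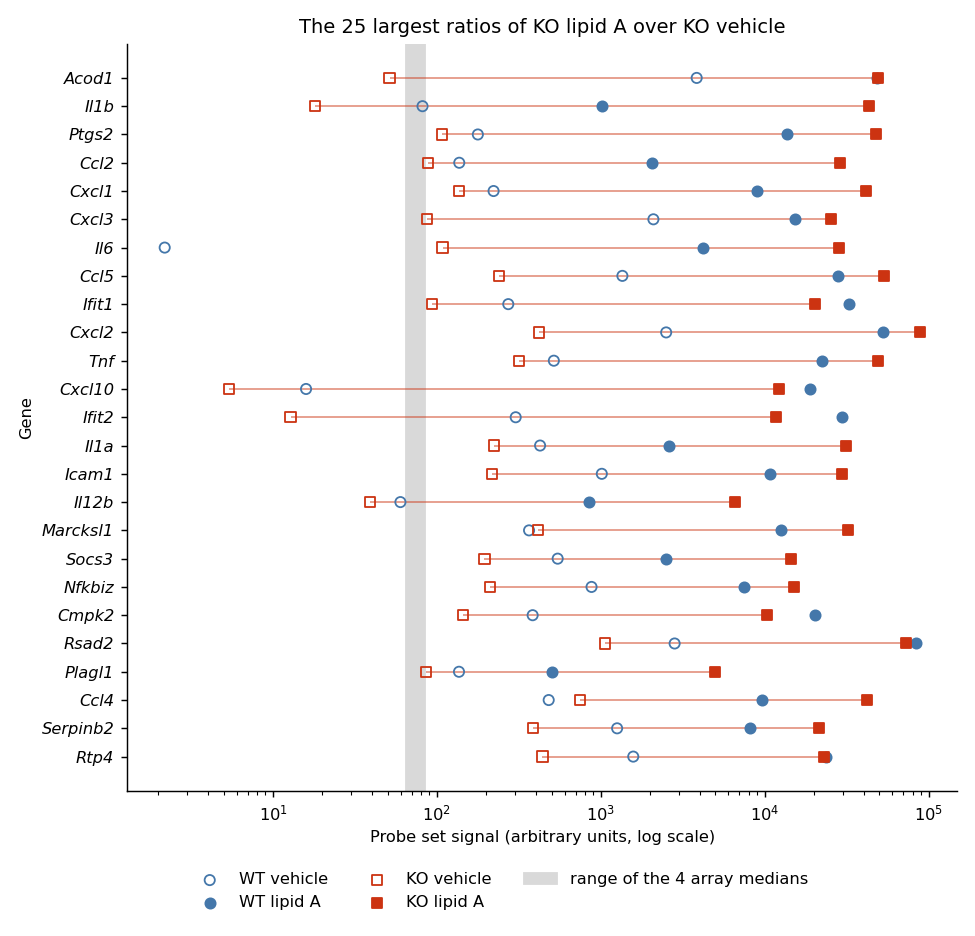
Signal (x axis, arbitrary units, log scale) of the 25 genes with the largest ratio of KO lipid A over KO vehicle on each of the 4 arrays, 1 row per gene with a line between the KO arrays. KO vehicle is the lowest or second lowest point of every gene and lies near or below the array medians (grey band) for several of them, and KO lipid A lies to the right of WT lipid A in 19 of 25. The genes were chosen on both KO signals, which favours a low KO vehicle and a high KO lipid A signal.

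Acod1 encodes the enzyme that makes itaconate from an intermediate of the citric acid cycle. It gave 51.4 with vehicle and 49219.7 with lipid A in KO, and 3839 and 48029.5 in WT. Both lipid A arrays thus gave a similar signal, while KO vehicle was the only array on which the gene lay below the median, and the ratio was at least 585-fold in KO against 12.5-fold in WT. Il1b, the precursor of interleukin-1β, gave KO signals of 18.1 (vehicle) and 43071 (lipid A), beside 81.6 and 1019.6 in WT. Here the KO lipid A array stood apart from the other 3, at least 512-fold above KO vehicle. Ptgs2, the inducible cyclooxygenase COX-2 of prostaglandin synthesis, gave WT signals of 178 (vehicle) and 13641 (lipid A) and KO signals of 107 (vehicle) and 47719.9 (lipid A), and was 445-fold higher in KO. A further probe set of Ptgs2 was at least 124-fold higher.

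Cytokine genes were higher as a group. Of 18 proinflammatory cytokine genes considered, 14 were over 2-fold higher and 0 lower, with a median log2 difference of 3.29, beside -0.19 over all genes considered. In KO vehicle 9 of the 18 lay below the median. Where both signals reached the median, 8 of 9 were over 2-fold higher and 0 lower. Il6, a cytokine of the acute phase response, gave 108 with vehicle and 28480.4 with lipid A in KO, and 2.19 and 4203 in WT. It was 263-fold higher in KO, with WT vehicle well below the median of its array and KO vehicle above its own. Tnf was 155-fold higher, from 316 to 49032, and Il1a, the precursor of interleukin-1α, was 139-fold higher, from 224 to 31148. Il12b, the subunit shared by interleukins 12 and 23, gave KO signals of 39.1 (vehicle) and 6599 (lipid A), beside 59.9 and 846 in WT, with a ratio of at least 78.4-fold, and a further probe set at least 37-fold higher. Its partner subunits, named after their values were seen, were higher too, Il12a by at least 16.3-fold and Il23a by at least 5.01-fold. Ifnb1, the interferon-β gene, was also named after its values were seen. It gave WT signals of 6.88 (vehicle) and 65.9 (lipid A) and KO signals of 10.2 (vehicle) and 108 (lipid A), so that KO lipid A was the only array on which it reached the median, at least 1.28-fold above KO vehicle.

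Chemokine genes, which draw leukocytes to a site, made up the other large block. In the CC family 7 of 10 genes considered were over 2-fold higher and 0 lower, with a median of 3.94 on the log2 scale. Ccl2, which attracts monocytes, gave 88.3 with vehicle and 28749 with lipid A in KO, and 137 and 2036 in WT, and the ratio of 326-fold in KO stood beside 14.9-fold in WT. Ccl5, an attractant of T cells, was 222-fold higher, from 239.7 to 53151, Ccl4 was 56.9-fold higher, from 742 to 42238, and Ccl3 was 35.4-fold higher, from 2398 to 84833. Ccl22, an attractant of regulatory T cells, gave KO signals of 42.9 (vehicle) and 392 (lipid A), beside 60.4 and 9.44 in WT. It reached the median of its array in KO lipid A alone, at least 4.65-fold above KO vehicle. In the CXC family 7 of 10 were over 2-fold higher and 0 lower, with a median of 2.84, which was 5.88 with the signals as deposited, and 4 of the 10 lay below the median in KO vehicle. With no filter and no floor 7 of 13 CXC genes were over 2-fold higher and 1 lower. Cxcl1, Cxcl2 and Cxcl3, neutrophil attractants whose promoters are shown above, were 304-fold, 209-fold and 294-fold higher. Cxcl1 gave WT signals of 222 (vehicle) and 8970.3 (lipid A) and KO signals of 136 (vehicle) and 41538 (lipid A). Cxcl3 gave 86.5 with vehicle and 25413 with lipid A in KO, and 2090.1 and 15209 in WT, and Cxcl2 gave KO signals of 420.5 (vehicle) and 87996 (lipid A), beside 2501 and 52796 in WT. For all 3 genes KO vehicle was the lowest of the 4 arrays and KO lipid A the highest. Cxcl10, an attractant of activated T cells, gave WT signals of 15.9 (vehicle) and 18979.7 (lipid A) and KO signals of 5.40 (vehicle) and 12271 (lipid A), and here WT lipid A was the highest array.

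The interferon side of the response was present in nearly every listed gene. Of 27 interferon-stimulated antiviral genes considered, 26 were over 2-fold higher and 0 lower, with a median log2 difference of 3.67. Ifit1, which binds foreign RNA, gave 93.5 with vehicle and 20149 with lipid A in KO, and 272 and 32711 in WT. Ifit2 gave KO signals of 12.8 (vehicle) and 11740.4 (lipid A), beside 302 and 29509 in WT. In both genes KO vehicle was lower than WT vehicle and KO lipid A was lower than WT lipid A, with ratios in KO of 215-fold and at least 139.5-fold. Cmpk2 was 71.7-fold higher, from 144 to 10298, and Rsad2, which encodes viperin, was 68.9-fold higher, from 1058 to 72948. All 9 interferon-inducible GTPases considered were over 2-fold higher, with a median of 3.82, led by Gbp2 at 43.5-fold, Ifi47 at 36.8-fold and Gbp3 at 31-fold. The same held for all 6 Schlafen genes considered, among them Slfn8 at 18.5-fold and Slfn2 at 12.1-fold. Among interferon regulatory factors and STATs 5 of 14 were over 2-fold higher and 0 lower, with Irf1 at 13-fold, Irf7 at 10.1-fold and Stat5a, which acts downstream of several cytokine receptors, at 8.43-fold. Of the MHC class I processing genes, 7 of 11 were over 2-fold higher and 0 lower, led by Nlrc5, the activator of class I genes, at 5.88-fold and the peptide transporter Tap1 at 5.27-fold.

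The components of NF-κB and their inhibitors were themselves higher. All 4 NF-κB subunit genes considered were over 2-fold higher, Nfkb2 by at least 33.2-fold, Rel by 7.68-fold, Relb by 5.29-fold and Rela by 2.20-fold, though a further probe set of Nfkb2 gave 3.45-fold. Among 13 feedback inhibitors 11 were over 2-fold higher and 0 lower, with a median of 2.61. Nfkbiz, a nuclear member of the IκB family, gave WT signals of 877 (vehicle) and 7419 (lipid A) and KO signals of 211 (vehicle) and 15134 (lipid A), a ratio of 71.8-fold beside 21.4-fold or more and 5.80-fold by further probe sets. Tnfaip3, which encodes A20, was 7.40-fold higher, from 2348 to 17364, and Nfkbia, which encodes IκBα and was named after its values were seen, was 7.09-fold higher, from 10543 to 74761. Zc3h12a, which encodes the RNase Regnase-1 that degrades cytokine mRNAs, was 14.1-fold higher, but its further probe set gave at least 1.58-fold. In the SOCS family 4 of 5 were over 2-fold higher. Socs3, the inhibitor of interleukin-6 receptor signalling, gave 195 with vehicle and 14394 with lipid A in KO, and 545 and 2484 in WT, and Cish was 14.3-fold higher. The TLR4 complex and its adaptors moved less as a group, with 5 of 16 over 2-fold higher, 2 lower and a median of 0.27 (6 higher and 0 lower with the array medians set equal). Over all genes considered the shares were 5.65% higher and 9.79% lower. Ikbke, Irak3 and Cd14 were 6.86-fold, 5.21-fold and 3.48-fold higher, whereas Tlr4, named after its values were seen, gave 1094 to 1282 in the KO pair, a ratio of 1.17-fold. Among the other Toll-like receptors Tlr2 was 24.5-fold higher, from 833 to 20412, and Tlr13 was 3.11-fold lower.

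Immediate early and stress transcription factors went both ways. In the list of AP-1 and stress factors 5 of 13 were over 2-fold higher and 2 lower, beside 5.65% and 9.79% over all genes considered. Maff was 15.8-fold higher, Batf 4.43-fold and Junb 3.73-fold, whereas Fos gave KO signals of 3639.6 (vehicle) and 243 (lipid A), beside 1416 and 786 in WT, and was 15-fold lower in KO, the third largest fall. Jun, named after its values were seen, was 2.51-fold lower. Nr4a3 was 12.2-fold higher and Ier3 23.8-fold higher, while Egr2 was 2.33-fold lower. Kdm6b, which removes methyl groups from lysine 27 of histone H3, was 9.60-fold higher, and Dnmt1, the maintenance DNA methyltransferase, was 4.15-fold lower, with further probe sets 8.71-fold and at least 19.4-fold lower. Both stand on the list of H3K9 methyltransferases and their partners, which also holds histone demethylases and Dnmt1. Of its 18 genes 2 were over 2-fold higher, 1 was lower and the median was -0.27. The other higher member was the histone demethylase Kdm4a, at 2.69-fold. None of the H3K9 methyltransferases on the list, Setdb1, Setdb2, Suv39h2, Ehmt1 and Ehmt2, differed over 2-fold, with log2 differences from -0.61 (Ehmt1) to 0.89 (Setdb2).

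Genes of effector functions were higher in part. The counts in this paragraph are to be read beside 5.65% higher and 9.79% lower over all genes considered. Of 10 genes of arginine, nitric oxide and itaconate metabolism considered, 6 were over 2-fold higher and 0 lower. Besides Acod1 these included Slc7a2, an arginine transporter, at 34-fold, and Slc7a11, the cystine transporter, at 10.3-fold. Nos2, the inducible nitric oxide synthase, and Arg1, both named after their values were seen, lay below the median on each of the KO arrays, at 4.16 to 3.52 and 80.3 to 24.3. Of the prostaglandin and leukotriene genes 3 of 15 were higher and 3 lower (3 and 0 with the array medians set equal), Ptges, the prostaglandin E synthase, being at least 7.53-fold higher and Lta4h 2.18-fold lower. Icam1, an adhesion molecule, was 136-fold higher, from 216 to 29366. In its list of costimulatory and checkpoint ligands 7 of 11 were higher and 1 lower. Cd40 was 42.3-fold higher (93.2-fold and 49.2-fold by further probe sets), Cd274, which encodes PD-L1, 10.6-fold and Cd83 7.71-fold. The inflammasome list had 6 of 11 higher and 0 lower, led by Nlrp3 with at least 33.5-fold and Casp4 at 11.5-fold. Of 12 receptors for purines, adenosine and lipid signals 3 were higher and 3 lower, with a median of -0.33, the largest differences being Hcar2, at 33.4-fold higher, Gpr84, with at least 14.4-fold higher, and P2ry6, at 10.2-fold lower. Of 11 chemoattractant receptors 4 were higher and 1 lower, with Fpr2 at least 26.2-fold higher. Olr1, a receptor for oxidised lipoprotein, gave WT signals of 299 (vehicle) and 1970.3 (lipid A) and KO signals of 179 (vehicle) and 7263 (lipid A), and was 40.5-fold higher. Serpinb2, an inhibitor of plasminogen activators, was 55.4-fold higher, from 384 to 21259.8, Mmp14 was 14-fold higher and Timp1 11.2-fold higher. Clec4e, the receptor Mincle, gave 3573 with vehicle and 78521 with lipid A in KO, and 48726 and 84688 in WT, the KO vehicle array being the one that stood apart.

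Counts for several other gene groups follow, to be read beside 5.65% higher and 9.79% lower over all genes considered. None of the 8 MHC class II genes considered was over 2-fold higher or lower, with a range of -0.56 to 0.43 on the log2 scale and H2-Ab1 at 1620.2 to 1095 in the KO pair. Further probe sets of H2-Ab1 were 1.83-fold and 1.28-fold higher. Among the 21 genes of the citric acid cycle and respiratory chain 0 were higher and 1 was lower, Idh1, the cytosolic isocitrate dehydrogenase, at 4.54-fold, and among 17 cholesterol synthesis genes 0 were higher and 1 was lower, Dhcr7 at 3.85-fold. Glycolysis and hypoxia genes had 2 of 18 higher and 2 lower, with Slc2a6 at 14.7-fold higher and Bnip3 at 2.92-fold lower. Of 19 S phase genes 0 were higher and 4 lower (3 with the array medians set equal), beside 9.79% lowered over all genes considered, Mcm7 by 2.69-fold, Cdt1 by 2.35-fold, Mcm2 by 2.30-fold and Pold1 by 2.15-fold. Mki67 was the 1 of 10 mitosis genes over 2-fold higher, at 55.3 to 2959.8 in the KO pair and at least 35.2-fold, from its 1 considered probe set, whereas the next largest of that list were Aurka, at 2.00-fold lower, and Tpx2, at 1.95-fold higher. A further probe set of Tpx2 was at least 1.56-fold lower. Another was 1.02-fold lower after its vehicle signal was raised to the array median.

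**Figure D3:**
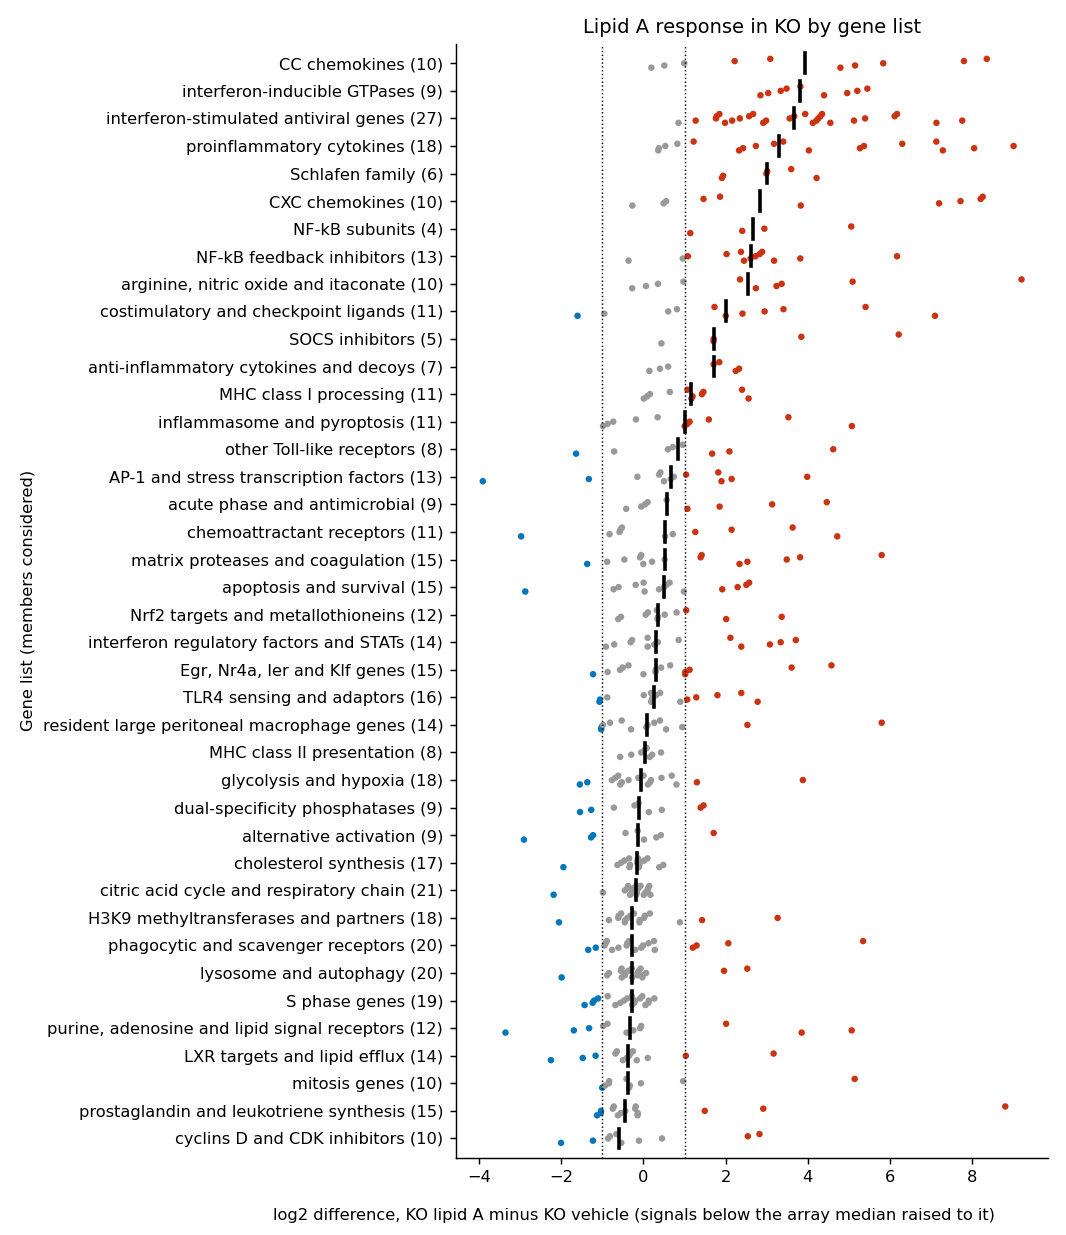
Log2 difference, KO lipid A minus KO vehicle, of each considered member (points) of the gene lists with at least 4 considered members (number in brackets), with the median as a black bar. Dotted lines mark 2-fold; red points are over 2-fold higher, blue points over 2-fold lower and grey points neither. The CC chemokine, interferon-inducible GTPase, interferon-stimulated antiviral, proinflammatory cytokine and Schlafen lists have the highest medians, up to 3.94, and the lists at the bottom have medians below 0, some of which turn just positive with the array medians set equal.

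Genes that were lower in KO were led by Fbxo32, a muscle-atrophy ubiquitin ligase subunit also known as atrogin-1. It gave KO signals of 2956 (vehicle) and 102 (lipid A), beside 5836 and 1302 in WT, and was 29-fold lower, with further probe sets at least 14.9-fold and 5.98-fold lower. Rab7b, a small GTPase of late endosomes that promotes the degradation of TLR4, gave WT signals of 12622 (vehicle) and 4249 (lipid A) and KO signals of 15936 (vehicle) and 746 (lipid A), and was 21.3-fold lower. Its further probe sets were 22.6-fold and at least 6.46-fold lower. Both genes were lower in WT too, by 4.48-fold and 2.97-fold, and KO lipid A was the lowest of the 4 arrays.

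Regulators of macrophage identity and metabolism stood among the 25 largest falls. Pparg, the nuclear receptor of lipid uptake and alternative activation, gave 2085 with vehicle and 279 with lipid A in KO, and 1569.5 and 545 in WT. Cebpa, a transcription factor of myeloid differentiation, gave KO signals of 3260.1 (vehicle) and 446 (lipid A), beside 2744 and 1175 in WT. Bcl6, a transcriptional repressor of inflammatory genes, gave WT signals of 1186 (vehicle) and 1185 (lipid A) and KO signals of 1493 (vehicle) and 204 (lipid A), with a ratio of 7.33-fold lower in KO and 1.0-fold in WT. The survival gene Bcl2 was 7.32-fold lower, from 750.0 to 102, and Lpin1, a phosphatase of lipid synthesis, was 11.4-fold lower, from 2084 to 183. Receptors in this set included P2ry6, which senses uridine nucleotides, at 10.2-fold, Cxcr4, the receptor for Cxcl12, at 7.84-fold, Cd300lb at 8.05-fold and Thbd, the anticoagulant thrombomodulin, at 7.93-fold. Signalling genes included Rgs2, a brake on G protein signalling, at 10.1-fold, and Mknk2, a kinase of the translation factor eIF4E, at 9.86-fold. St6gal1, a sialyltransferase, was 8.78-fold lower, Smpd2, a sphingomyelinase, at least 7.18-fold, and Irf2bpl 8.58-fold. Tmem86a, Cdca7l, Fam117a, Pgm2l1, Foxred2 and Knop1, also of this set, were between 7.45-fold and 9.65-fold lower, with bounds for Cdca7l, Fam117a and Foxred2. Further probe sets fell by less for several of these genes, those of Knop1 being 1.57-fold and 2.63-fold lower, that of St6gal1 1.59-fold lower and 1 of Pgm2l1 2.52-fold lower. In the list of LXR targets and lipid efflux 3 of 14 were lower and 2 higher (2 and 2 with the floor at the 60th percentile), beside 9.79% and 5.65% over all genes considered, and Scd2, a fatty acid desaturase, was 4.75-fold lower and Abcg1, a cholesterol exporter, 2.78-fold lower, while Ch25h, cholesterol 25-hydroxylase, was at least 8.97-fold higher. Tfeb, a regulator of lysosome genes, was 3.97-fold lower and its relative Tfec 5.76-fold higher. Foxo3, Sesn1 and Il6ra, named after their values were seen, were 6.23-fold, 6.50-fold and 7.04-fold lower, although a further probe set of Il6ra was 1.10-fold lower and one of Sesn1 at least 21.5-fold lower.

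**Figure D4:**
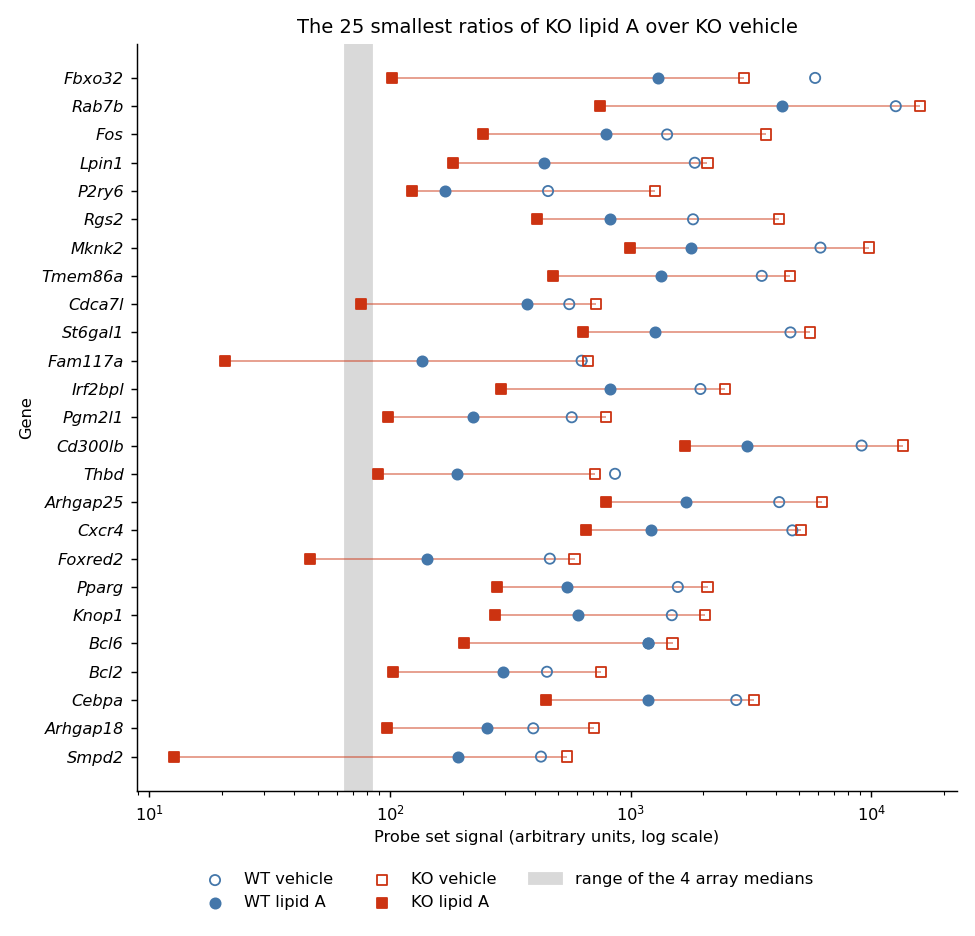
Signal (x axis, arbitrary units, log scale) of the 25 genes with the largest falls from KO vehicle to KO lipid A, taken from genes that reached the median in KO vehicle, on each of the 4 arrays. KO lipid A is the lowest point in 25 of 25, and KO vehicle lies to the right of WT vehicle in 23 of 25. The genes were chosen on both KO signals, which favours a high KO vehicle and a low KO lipid A signal, so these counts are a description.

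Genes next to each other on the chromosome were higher together at several known clusters. Along the RefSeq order of the genes considered, 12 runs of 3 or more neighbours were all over 2-fold higher in KO and 15 were all over 2-fold lower, and chance was not assessed. The longest run held 7 genes of the Schlafen cluster, Slfn5, Slfn9, Slfn8, Slfn10-ps, Slfn2, Slfn1 and Slfn4, with log2 differences of 1.06 to 4.21, though a further probe set of Slfn9 was 1.23-fold lower. Runs of 4 were the CXC chemokines Cxcl3, Cxcl1 and Cxcl2 with Mthfd2l (1.13 to 8.25) and the class I processing genes Psmb9, Tap1, Psmb8 and Tap2 (1.17 to 2.40). Further probe sets of Mthfd2l were at least 1.24-fold lower, at least 1.99-fold higher and 1.34-fold higher. Runs of 3 included Gbp7, Gbp3 and Gbp2, then Ifit2, Ifit3 and Ifit1bl1, and Parp14, Dtx3l and Parp9. No run of lowered genes was longer than 4. Members of the runs outside the naming rule were named after their values were seen. Such neighbours are often related in sequence, and how far their probe sets hybridise to each other's transcripts was not tested. The 68 genes over 16-fold higher had a median gene length of 11.3 kb, against 22.1 kb over all 12273 considered genes with a length in the RefSeq table, 23.2 kb for the 693 over 2-fold higher and 27.4 kb for the 1202 lowered.

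Macrophage markers were high on both KO arrays, and markers of other cells gave the following values beside the response. Over all genes considered 5.65% were over 2-fold higher and 9.79% lower. Of 10 macrophage marker genes considered 1 was over 2-fold higher, Cd14, and 0 were lower, with Adgre1, which encodes F4/80, at 3726 to 6632 and Csf1r at 34472 to 25476 in the KO pair. The summed signal of the 11 macrophage markers with a probe set was 276156 with vehicle and 296607 with lipid A. None of 10 B cell markers was over 2-fold higher or lower, and their summed signal was 8667 with vehicle and 8189 with lipid A, with Ms4a1, which encodes CD20 and was named after its values were seen, at 2399 to 2931, against 144 in WT vehicle. A further probe set of Ms4a1 was 1.96-fold lower with lipid A in KO, from 861 to 439. For T and NK cells 0 of 10 differed over 2-fold and the sum was 36903 and 24315, of which Il7r, also named after its values were seen, made up 35961 to 23264; 7 of the 11 genes lay below the median in KO vehicle. Neutrophil markers had 0 of 7 over 2-fold either way and a sum of 2521 and 2728, and mast cell and eosinophil markers had 1 of 3 lower, Siglecf, and a sum of 720 and 478. Dendritic cell markers had 1 of 6 higher, Bst2, which is also induced by interferon, and 1 lower, Zbtb46, whose further probe sets were 1.71-fold or more and 1.12-fold or more higher, with a sum of 5886 and 6335, and fibroblast and mesothelial markers had 1 of 8 higher, Pdgfrb, and a sum of 1167 and 1518. In these bulk samples more cells of a type and more RNA per cell cannot be told apart, and the part of other cells in the response was not tested.

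Set beside WT, the share of KO genes over 2-fold the same way there depended on the scaling. In WT 692 of 12129 genes considered had a ratio over 2 with lipid A (5.71%) and 458 were over 2-fold lower (3.78%). The sets of higher genes shared 396 members, which were 57.0% of the KO set and 57.2% of the WT set. Of the lowered genes 256 were shared, which were 21.3% of the KO set and 55.9% of the WT set. With the array medians set equal the shares of the KO sets were 38.9% of the higher and 39.6% of the lowered genes, and after quantile normalization 49.6% and 21.1%. All 25 genes with the largest ratio in KO were over 2-fold higher in WT as well, as were 94 of the 100 largest, and of the 25 and 100 largest falls 20 and 61 were over 2-fold lower in WT. Among the 396 shared genes the KO ratio exceeded the WT ratio in 271, with a median difference of 0.42 on the log2 scale, and with the array medians set equal in 338, with a median of 0.77. Of the 256 shared lowered genes the KO fall was the larger in 196, with a median of -0.31, but with the medians set equal in 119, with a median of 0.04, so that this direction turned with the scaling.

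**Figure D5:**
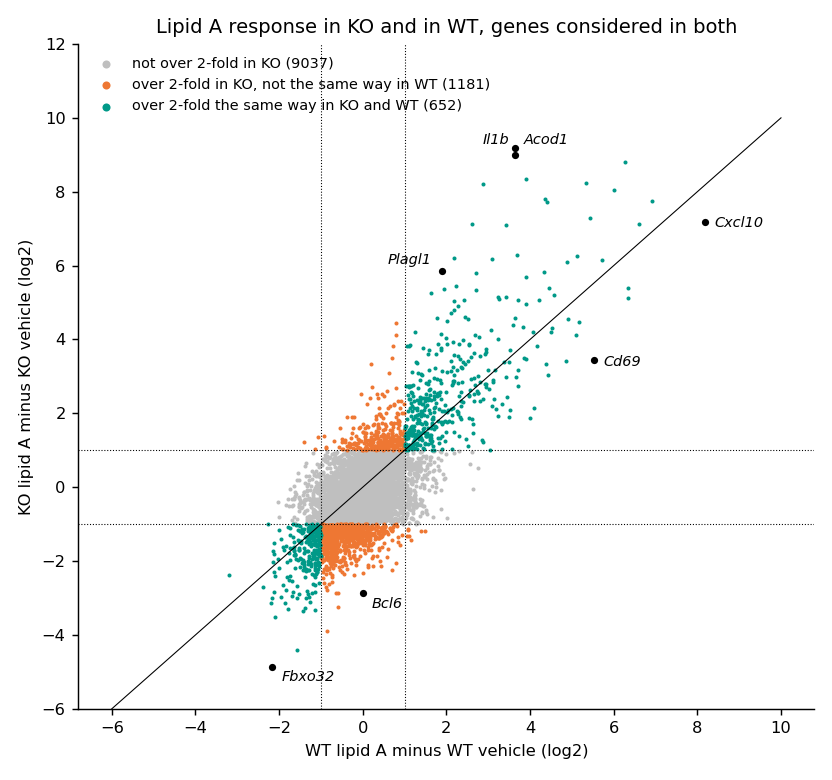
Log2 difference of lipid A minus vehicle in WT (x axis) and KO (y axis) of the 10870 genes considered in both, floored at the array medians. Green points (652) are over 2-fold the same way in both, orange points (1181) are over 2-fold in KO but not the same way in WT, grey points are not over 2-fold in KO, dotted lines mark 2-fold and the diagonal is equality.

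A larger ratio can come from the level without stimulation, from the level with lipid A, or from both. Among the 25 largest ratios in KO the vehicle signal was over 2-fold lower in KO than in WT for 13 genes and over 2-fold higher for 0, and the lipid A signal was over 2-fold higher in KO for 15 and lower for 1, Ifit2. Cxcl3 and Il1a, and Clec4e from outside these 25, are examples. Cxcl3 differed more at the start, with KO vehicle 24.2-fold below WT vehicle and KO lipid A 1.67-fold above WT lipid A. Il1a differed more at the end, with KO vehicle 1.90-fold below and KO lipid A 12-fold above, and Clec4e differed mainly at the start, with KO vehicle 13.6-fold below WT vehicle and KO lipid A 1.08-fold below WT lipid A. Over all 695 genes the vehicle signal was over 2-fold lower in KO for 103 (14.8%) and higher for 16 (2.30%), beside 1.92% and 5.10% of the 12293 genes considered. Their lipid A signal was over 2-fold higher in KO for 184 (26.5%) and lower for 26 (3.74%), beside 4.30% and 3.69%. These genes were chosen on both KO signals, which favours a low KO vehicle and a high KO lipid A signal, so the shares are a description.

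The largest excess of the KO response over the WT response was seen in Acod1, Il1b, Cxcl3, Il1a, Ccl2, Icam1, Csf2, Plet1, Socs3 and Plagl1. Csf2, the gene of the cytokine GM-CSF, gave 3.14 with vehicle and 1933 with lipid A in KO, and 4.02 and 3.77 in WT. It lay far below the median on 3 arrays and well above it on KO lipid A alone, where it was at least 23-fold above KO vehicle. Plagl1, a zinc finger transcription factor, gave KO signals of 85.3 (vehicle) and 4948 (lipid A), beside 136 and 507 in WT. Plet1 gave WT signals of 16.6 (vehicle) and 72.4 (lipid A) and KO signals of 8.73 (vehicle) and 1965 (lipid A). A further probe set of Plet1 gave KO signals of 36.7 (vehicle) and 81.1 (lipid A). It was 1.04-fold lower only after its vehicle signal was raised to the array median. Another probe set of Plet1 was at least 5.04-fold higher. In all, 299 of the 695 genes were not over 2-fold higher in WT, of which 107 were between 1.5-fold and 2-fold higher there, 185 were within 1.5-fold and 7 were over 1.5-fold lower. The 185 include genes that lay below the median on both WT arrays, among them Csf2 and Il10. For such genes the WT difference is only the shift between the WT array medians and not a measured lack of change. Genes of the 185 named after their values were seen were Sphk1, which makes sphingosine 1-phosphate, at 6.53-fold in KO and 1.17-fold in WT, Lif with at least 5.36-fold and 1.12-fold, Acp5 at 10.2-fold and 1.15-fold, the costimulatory ligand Cd80 at 5.31-fold and 1.30-fold, Cybb, the NADPH oxidase subunit, at 3.94-fold and 1.31-fold, and Map3k8, the kinase Tpl2, at 4.00-fold and 1.48-fold. Batf and Il4ra, at 1.30-fold and 1.07-fold in WT, belonged to them too, but 2 further probe sets of Il4ra were at least 1.14-fold and 1.15-fold higher in KO. Acp5 gave WT signals of 2018.9 (vehicle) and 2319.5 (lipid A) and KO signals of 292.5 (vehicle) and 2975.8 (lipid A). Cybb gave 46571 and 60888 in WT and 16422 and 64747 in KO, in the same order. For both Acp5 and Cybb KO vehicle was the lowest array. Il10, the anti-inflammatory cytokine, gave 23.4 with vehicle and 275 with lipid A in KO, and 5.75 and 8.65 in WT. Of the 1203 lowered genes 947 were not over 2-fold lower in WT, of which 359 were over 1.5-fold lower there, 562 were within 1.5-fold and 26 were over 1.5-fold higher. The 562 likewise include genes below the median on both WT arrays, such as Apoc1.

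At the other end, 10 genes over 2-fold higher in KO had the largest shortfall against WT, and several of them are induced by interferon. Cd69 gave KO signals of 81.4 (vehicle) and 909 (lipid A), beside 35 and 3006 in WT, with ratios of at least 10.8-fold in KO and at least 46.2-fold in WT. Mx2, an antiviral GTPase, gave WT signals of 11.6 (vehicle) and 1121 (lipid A) and KO signals of 113 (vehicle) and 503 (lipid A), Slfn1 gave 99.7 with vehicle and 374 with lipid A in KO, and 2.56 and 733 in WT, and Ifit1bl1 gave KO signals of 80.2 (vehicle) and 896 (lipid A), beside 1.0 and 1897 in WT. Gbp6 was 8.19-fold higher in KO and 21.6-fold in WT, Batf2 4.22-fold and at least 11.5-fold, Nod1 2.03-fold and 8.27-fold, Enpp4 3.64-fold and 16-fold, Mitd1 2.35-fold and 7.34-fold, and Tpst1 2.44-fold and 7.19-fold. A further probe set of Gbp6 was at least 15.3-fold higher in KO. For each of the 10 the KO vehicle signal was above the WT vehicle signal and the KO lipid A signal below the WT lipid A signal, an order that the choice of these genes favours. Over the whole list of interferon-stimulated antiviral genes the median was 3.67 in KO and 3.07 in WT, and over the interferon-inducible GTPases it was 3.82 and 3.90, with no test of either difference.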

How the data were processed

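For the 4 Affymetrix arrays, values of all probe sets were deposited by the authors in a single table. These deposited intensity values are on a linear scale, 1 per probe set and array, and were made by the authors from the scanned images with software not given in the sources used here. A scaling of whole arrays was inferred from their equal trimmed mean, and no further normalization was applied. Detection and increase calls, which the study combined with a 2-fold threshold, are not used here.

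Of 45101 probe sets 64 controls were left out. By the platform annotation 34945 of the other 45037 had 1 gene symbol, 932 had several and 9160 had none, and 34741 matched a RefSeq gene number. For each of 18193 genes the brightest probe set by mean log2 signal over 4 arrays was taken. Signals below the median of their array were raised to it, log2 was taken, and genes over 2-fold different between KO lipid A and KO vehicle were counted. Precision is limited by having 1 array per condition, and there is no depth to give. There are no p-values, because genes cannot stand in for replicates. Gene lists (48, with 686 different genes, of which 624 have a probe set of 1 symbol) are described by counts and medians. Counting was tested on simulated data.

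The genes, lists and comparisons were chosen with earlier results of these data known. Named genes are the 25 largest and 25 smallest ratios in KO (the latter at or above the median in KO vehicle), the 4 members of a list that differed most, the 10 genes induced in KO with the largest difference from WT in each direction, genes the study names and 3 reference genes. Others are said to be named after their values were seen. Alternatives were other scalings, floors, filters, thresholds and ways from probe sets to genes. Scripts ran under Python 3.11.15 (numpy 2.4.6, pandas 2.3.3, SciPy 1.17.1, matplotlib 3.10.9).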

Additional observations from a re-analysis of the deposited data

Results flagged for a closer look

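Of the genes over 2-fold higher or lower in KO, 10 were over 2-fold different in the opposite direction in WT, and all were named after their values were seen. On the log2 scale of lipid A minus vehicle, the 3 that were higher in KO and lower in WT were 2610316D01Rik (1.02 in KO and -1.14 in WT), Rin3 (1.22 in KO and -1.41 in WT) and Usp53 (1.36 in KO and -1.08 in WT). The 7 that were lower in KO and higher in WT were Amotl1 (-1.16 in KO and 1.07 in WT), Apex2 (-1.31 in KO and 1.10 in WT), Clip4 (-1.17 in KO and 1.38 in WT), Rab38 (-1.18 in KO and 1.5 in WT), Rpusd3 (-1.12 in KO and 1.08 in WT), Tmem114 (-1.44 in KO and 1.15 in WT) and Trmt13 (-1.32 in KO and 1.06 in WT). The difference between KO and WT was not tested, since each value comes from 1 pair of arrays. The highest signal of any of these genes on the KO arrays was 329, for Usp53, and the lowest of their higher signals was 165, for Rpusd3, not far above the array medians. With the median over probe sets in place of the brightest probe set, 2610316D01Rik and Trmt13 changed sign in KO.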

How the results depend on the processing

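Counts depended mainly on how signals near background were treated and on the threshold. Genes over 2-fold higher in KO were 695, and 1378 with the signals as deposited, 2955 with no filter and no floor, 375 at a 3-fold and 1468 at a 1.5-fold threshold. Genes over 2-fold lower were 1203, and 1966, 3858, 331 and 3048 under the same settings. Genes higher in both KO and WT were 396, and 1192 with no filter and no floor, 212 at 3-fold and 693 at 1.5-fold, and genes lower in both were 256, and 990, 42 and 982. Under the other planned settings (array medians centred, quantile normalization, both arrays at or above the median, a floor at the 60th percentile, the median over probe sets, and _at probe sets only) the 4 counts stayed within 1.5 times of these, with 567 to 895 higher and 863 to 1067 lower in KO. Higher genes were 36.6% of all genes over 2-fold different in KO, 50.9% with the medians centred and 45.7% after quantile normalization. Of the 695 genes 537 remained over 2-fold higher with the median over probe sets, and of the 1203 lowered genes 743 did. List medians moved by less than the technical spread in 351 of 384 recomputed values, and the chemoattractant receptor median turned from 0.53 to -0.52 when both signals had to reach the median. Log2 differences of named genes moved by less than that spread in 1990 of 2191. With the median over probe sets the sign turned for 2610316D01Rik (-0.082), Axl (-0.19), Dusp16 (-0.57), Ltbp1 (0.15) and Trmt13 (0.15), and the cause was not tested. With _at probe sets only the sign turned for Plet1 (-0.054), where the KO vehicle signal lay below its array median and was raised to it. No paired analysis was possible because each condition has 1 array, and no array could be left out. Signal over background limits folds of genes below the median to bounds.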
